A study of Homo sapiens with 6 samples.

Results

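The 9 genes described here encode enzymes of the pentose phosphate pathway, other enzymes that make or use NADPH, and the regulators of the transcription factor NRF2. They were taken by symbol from the deposited table of 25349 genes, and all 9 were found once and passed the filter on low counts, which left 14661 genes to test. The enzymes are PGD, TKT, TALDO1, ME1, IDH1 and NQO1, and the regulators are NFE2L2, which encodes NRF2 itself, KEAP1 and BACH1. They were measured by RNA sequencing in SCC-9 cells, an established human line derived from a tongue squamous cell carcinoma. Cells of 3 libraries had received siRNA directed at exon 7 of the proliferation gene MKI67, which encodes Ki67 (siE7), and those of the other 3 a nonspecific siRNA (siNC). Both groups were grown with fetal bovine serum and hydrocortisone, and were transfected with 10 nM siRNA by lipofection on day 0 and day 2. RNA was purified on day 4. Which of the exon 7 siRNAs listed in the methods was used for these libraries is not given in the sources used here, and 1 cell line was sequenced. Nothing states that the libraries of a group came from separate cultures, so p-values measure only the spread between these samples, which may be technical.

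NADPH supplies the electrons with which cells regenerate reduced glutathione and thioredoxin and build lipids. The pentose phosphate pathway makes it in its oxidative branch, of which PGD is a part, while TKT and TALDO1 exchange sugar phosphates between the non-oxidative branch and glycolysis. Malic enzyme ME1 and isocitrate dehydrogenase IDH1 are other cytosolic sources of NADPH. NQO1 consumes NADH or NADPH to reduce quinones and is widely read as a target of NRF2. In unstressed cells KEAP1 links NRF2 to a CUL3 ubiquitin ligase that marks it for degradation. Electrophiles and oxidants block this, and NRF2 then binds antioxidant response elements together with a small MAF protein. BACH1 is a heme-sensitive repressor that occupies the same elements. NRF2 activity is set mostly at the level of the protein, which was not measured in these libraries.

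MKI67, the targeted gene, had TMM-scaled levels of 1072, 1029 and 1077 counts per 1000000 (CPM) in the siNC libraries and of 111.8, 124.5 and 107.8 CPM in the siE7 libraries. It fell by 3.21 on the log2 scale (SE 0.114, adjusted p = 6.71e-08, quasi-likelihood test of edgeR, Benjamini-Hochberg adjustment). The libraries held between 25608192 and 29550264 counts on genes. Replicate 1 of siE7 stood apart: the chi-square of its counts against the other siE7 libraries was 61.1 and 72.7 per degree of freedom, and 5.54 to 6.22 between any other pair of libraries within a group. All p-values of single genes below come from the same edgeR test, adjusted over all 14661 genes. For the 9 genes the log2 fold change without siE7 replicate 1 is given as well. That fit computed the filter and the TMM factors anew, so its scale differs from that of the levels given. Scaling by library totals in place of TMM factors moved the median log2 fold change of all tested genes from 0.08 to 0.25, so each change reported here is relative to the TMM scale. All 8 squamous markers were detected, with a summed level between 21320 and 27810 CPM in every library. The 5 fibroblast markers, not all detected in every library, summed to 14.4 to 17.5 CPM with siNC and 16.3 to 22.1 CPM with siE7, and the leukocyte markers, of which 1 of 4 was in the table, to at most 0.036 CPM. The 3 endothelial markers summed to 0.284 to 0.492 CPM with siNC and 0.0725 to 0.270 CPM with siE7. Their part in the results was not tested. In such bulk samples, fewer cells that express a gene and less of its RNA per cell cannot be told apart.

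Of the 9 genes, ME1 rose, NQO1 fell, and the other 7 did not pass an adjusted p of 0.05. Of all tested genes, 18.0% were called higher and 16.0% lower, so 1 gene in each direction is close to the background share. No gene of the 9 passed the study's condition of a log2 fold change beyond 1 as well, against 12.2% of all tested genes, and none did so with DESeq2 or limma-voom. The siE7 libraries all lay above the siNC libraries for PGD, ME1 and KEAP1 (background 24.9%) and all below them for TALDO1 and NQO1 (background 22.7%). The median log2 fold change of the 9 genes was 0.20, beside 0.08 for all tested genes.

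**Figure D1:**
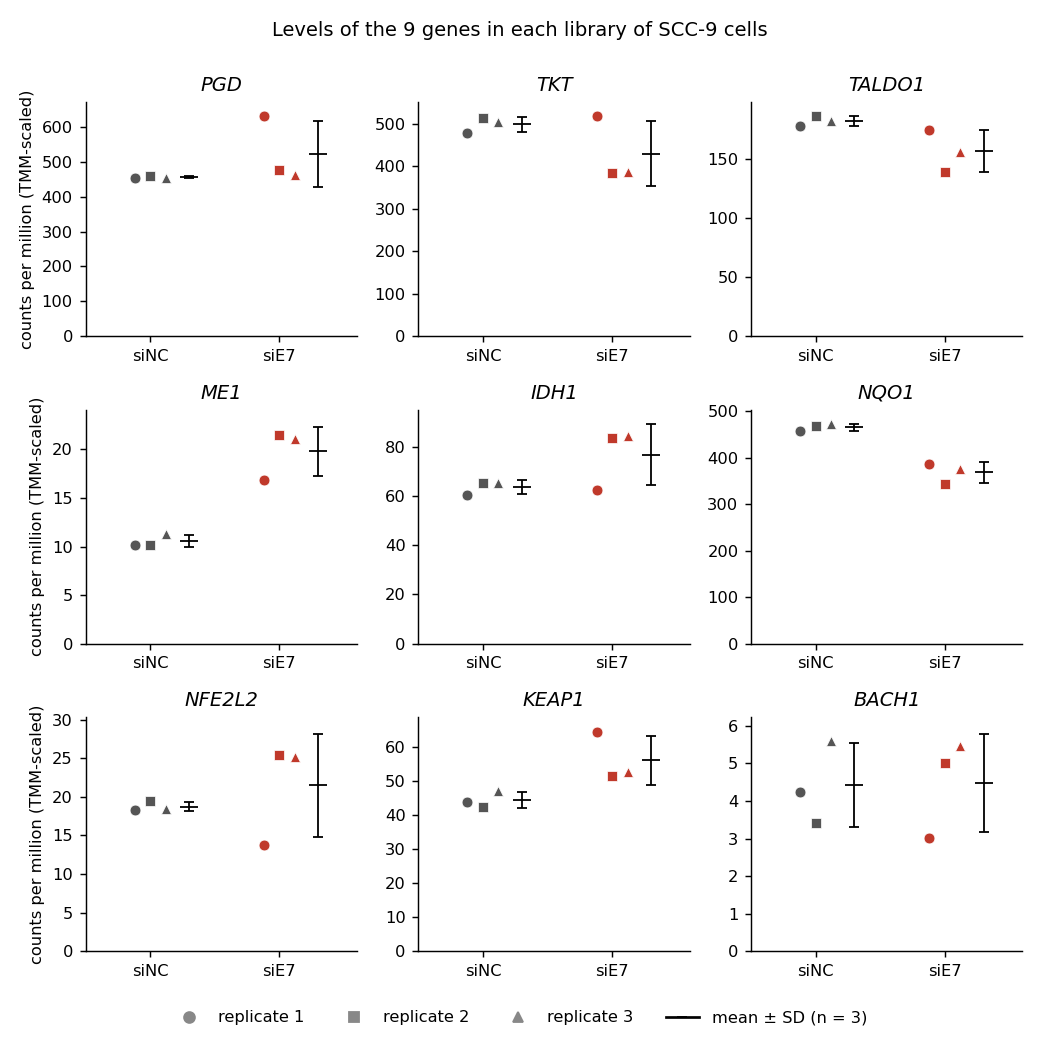
Level of each of the 9 genes in each library, as TMM-scaled CPM on axes that start at 0, with the mean ± SD of 3 libraries beside the points. ME1 is higher and NQO1 lower in every siE7 library, and siE7 replicate 1 (circle) lies outside the other siE7 libraries in every panel.

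ME1 makes NADPH as it converts malate to pyruvate. Its gene (ENSG00000065833.9) spans positions 83210402 to 83431051 of chromosome 6, minus strand, in GRCh38, and no other annotated exon overlaps its exons. Its level was 10.2, 10.2 and 11.3 CPM in the siNC libraries and 16.9, 21.5 and 21.1 CPM in the siE7 libraries. The groups did not overlap, and siE7 replicate 1 was the lowest of the siE7 libraries. The mean rose from 10.5 ± 0.623 CPM (SD, n = 3) to 19.8 ± 2.53 CPM (SD, n = 3), which is 1.88-fold. This is a log2 fold change of 0.91 (SE 0.154, 95% interval 0.58 to 1.25, adjusted p = 0.00106 by edgeR), and over 14 alternative settings it lay between 0.85 and 1.09 with adjusted p between 1.38e-09 and 0.0111. Leaving out siE7 replicate 1 gave 0.95.

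NQO1 lies on chromosome 16 from 69706996 to 69726668 on the minus strand (ENSG00000181019.13). It overlaps a long noncoding RNA on the other strand by 575 exonic bases, a gene that had at most 1 count in any library. Its level was 457.0, 467.7 and 472.3 CPM with siNC and 387.0, 344.2 and 375.5 CPM with siE7. All siE7 values were below all siNC values. The mean fell from 465.6 ± 7.84 CPM (SD, n = 3) to 368.9 ± 22.1 CPM (SD, n = 3), which is 1.26-fold lower. As a log2 fold change it was -0.34 (SE 0.102, 95% interval -0.56 to -0.11, adjusted p = 0.0255 by edgeR). It was -0.43 without siE7 replicate 1. The call was lost with any other single library left out (adjusted p = 0.0517 to 0.112), with the replicate number as a block (adjusted p = 0.0595) and with library totals as the scale (-0.17, adjusted p = 0.12). Over the alternatives the adjusted p of NQO1 lay between 2.53e-08 and 0.12, and its direction was the same in all of them.

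The sequences before the starts of ME1 and NQO1 are shown because these genes passed the test in opposite directions and both are commonly described as NRF2 targets. They are the 250 bases upstream of the RefSeq start on GRCh38.p14, read 5′ to 3′ on the minus strand, at chr6:83431052-83431301 for ME1 and chr16:69726561-69726810 for NQO1. Capitals mark a match to TGACNNNGC, a core form of the antioxidant response element, searched on both strands.

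ME1: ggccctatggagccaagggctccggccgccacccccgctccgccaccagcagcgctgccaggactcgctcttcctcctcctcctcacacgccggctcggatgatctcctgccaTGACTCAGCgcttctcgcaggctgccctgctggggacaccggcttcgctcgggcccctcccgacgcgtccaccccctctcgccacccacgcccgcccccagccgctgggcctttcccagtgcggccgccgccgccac

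NQO1: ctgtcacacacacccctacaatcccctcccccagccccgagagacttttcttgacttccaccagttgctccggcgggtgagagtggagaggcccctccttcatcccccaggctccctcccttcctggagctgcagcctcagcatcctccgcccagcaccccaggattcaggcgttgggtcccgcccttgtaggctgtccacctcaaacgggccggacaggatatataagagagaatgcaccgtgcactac

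The match in ME1, TGACTCAGC, starts 137 bases upstream of the listed start at 83431180 to 83431188, and it contains a match to TGANTCA, the AP-1 motif. A further match of ME1, on the other strand, lies downstream of the start. These letters are not in the window shown for NQO1. Bases further upstream were not searched for either gene, so the windows do not show whether NQO1 has such a match there. RefSeq windows from 250 bases before to 50 bases after each start were searched, of which the 9 genes had 14. A match to TGACNNNGC was found in 4 of these 14 windows, for ME1, PGD, IDH1 and KEAP1. Of all 35114 windows 13.3% had one. TGANTCA was found in 2 of the 14 windows, for ME1 and BACH1, and in 7.71% of all windows. A match describes the letters and is no evidence of binding.

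The pentose phosphate enzymes did not pass the test. PGD (chromosome 1, 10398592 to 10420511, ENSG00000142657.21), which makes NADPH in the oxidative branch, had 454.1, 459.7 and 453.9 CPM with siNC and 630.6, 475.7 and 461.9 CPM with siE7. All siE7 libraries were above all siNC libraries, but replicates 2 and 3 by a small margin. Its log2 fold change was 0.20 (95% interval -0.09 to 0.48, adjusted p = 0.264 by edgeR). With siE7 replicate 1 left out and the TMM factors computed anew, it was -0.02 (95% interval -0.13 to 0.09), and the direction turned. The part of the new scale in this turn was not tested.

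TKT (chromosome 3, 53224712 to 53256052, ENSG00000163931.16) encodes transketolase. It had 478.9, 513.4 and 504.8 CPM with siNC and 517.9, 385.2 and 387.3 CPM with siE7. Replicate 1 of siE7 was above every siNC library, and the other siE7 libraries were below all of them. TKT had a log2 fold change of -0.21 (95% interval -0.50 to 0.07, adjusted p = 0.226 by edgeR). TKT passed the test at -0.43 without siE7 replicate 1, with an adjusted p of 2.16e-08 (2.16e-08 to 0.699 over all alternatives).

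TALDO1 (chromosome 11, 747415 to 765012, ENSG00000177156.11) encodes transaldolase. Its level was 178.1, 187.0 and 182.3 CPM with siNC and 175.3, 139.4 and 156.6 CPM with siE7. All siE7 libraries were below all siNC libraries, with replicate 1 of siE7 near siNC replicate 1. TALDO1 had a log2 fold change of -0.22 (95% interval -0.47 to 0.04, adjusted p = 0.169 by edgeR). It passed at -0.36 without siE7 replicate 1, with an adjusted p of 1.64e-06 (1.64e-06 to 0.679 over all alternatives).

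Ratios of counts within a library do not depend on the scaling between libraries. The count of PGD was 0.948, 0.895 and 0.899 times that of TKT in the siNC libraries and 1.22, 1.24 and 1.19 times in the siE7 libraries. The log2 ratio was -0.13 ± 0.0463 (SD, n = 3) with siNC and 0.28 ± 0.0253 (SD, n = 3) with siE7, a difference of 0.41 (exact two-sided permutation test, p = 0.1, adjusted p = 0.2 over 4 ratios). This p is the smallest that 3 libraries against 3 allow. Replicate 1 of siE7, which stood apart in the levels of both genes, lay within the other siE7 libraries in this ratio. The ratio of PGD to TALDO1 was 2.55, 2.46 and 2.49 with siNC and 3.597, 3.41 and 2.95 with siE7. The difference of its log2 values was 0.40 (exact two-sided permutation test, p = 0.1, adjusted p = 0.2). With each library left out in turn, the differences lay between 0.40 and 0.44 for PGD to TKT and between 0.34 and 0.49 for PGD to TALDO1.

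**Figure D2:**
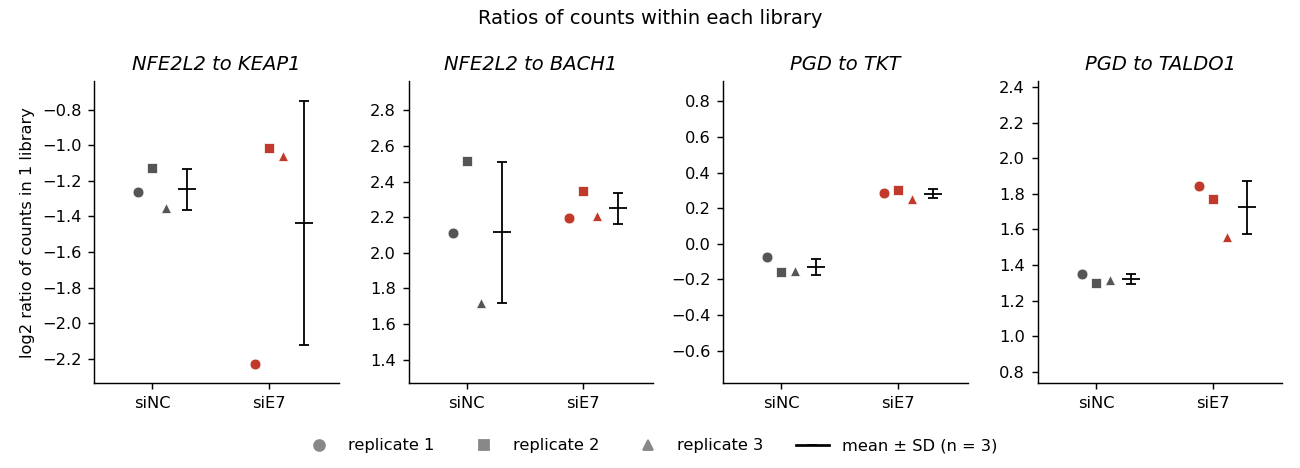
Log2 ratio of the counts of a pair of genes in each library, with the mean ± SD of 3 libraries; every panel spans the same range on its axis. The ratios of PGD to TKT and of PGD to TALDO1 are higher in every siE7 library, and the ratio of NFE2L2 to KEAP1 is lowest in siE7 replicate 1.

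IDH1 (chromosome 2, 208236229 to 208266074, ENSG00000138413.14) makes NADPH from isocitrate in the cytosol and peroxisomes. It had 60.2, 65.4 and 65.2 CPM with siNC and 62.6, 83.7 and 84.2 CPM with siE7. Replicate 1 of siE7 lay among the siNC libraries, and the others were above them. IDH1 had a log2 fold change of 0.27 (95% interval -0.02 to 0.56, adjusted p = 0.136 by edgeR). It passed at 0.34 without siE7 replicate 1, with an adjusted p of 1.87e-05 (1.87e-05 to 0.36 over all alternatives). IDH1 shares 94 exonic bases with IDH1-AS1 on the other strand, which had at most 9 counts.

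None of the NRF2 regulators passed the test. NFE2L2 (chromosome 2, 177218667 to 177392756, ENSG00000116044.16) had 18.4, 19.5 and 18.4 CPM with siNC and 13.8, 25.5 and 25.2 CPM with siE7. Replicate 1 of siE7 was the lowest of all libraries and the others the highest. NFE2L2 had a log2 fold change of 0.20 (95% interval -0.26 to 0.65, adjusted p = 0.499 by edgeR). It passed at 0.37 without siE7 replicate 1, with an adjusted p of 8.07e-04 (8.07e-04 to 0.885 over all alternatives). The annotated gene overlaps 4 others, of which HNRNPA3 on the other strand shares 3509 exonic bases and had 24563 to 29691 counts. None of these bases are in the canonical NFE2L2 transcript, and the only overlap with that transcript is 190 bases of a noncoding gene with at most 4 counts.

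KEAP1 (chromosome 19, 10486125 to 10503558, ENSG00000079999.14) had 43.99, 42.5 and 47.2 CPM with siNC and 64.5, 51.6 and 52.6 CPM with siE7. Every siE7 library was above every siNC library, and replicate 1 of siE7 was the highest. KEAP1 had a log2 fold change of 0.34 (95% interval 0.06 to 0.61, adjusted p = 0.0586 by edgeR) and missed the threshold. It passed at 0.17 without siE7 replicate 1, with an adjusted p of 0.0479 (0.0054 to 0.217 over all alternatives).

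BACH1 (chromosome 21, 29194071 to 29630751, ENSG00000156273.16) had 4.25, 3.40 and 5.61 CPM with siNC and 3.003, 5.00 and 5.46 CPM with siE7. The groups overlapped over most of their range. Its counts were between 85 and 167 per library, the fewest of the 9 genes. BACH1 had a log2 fold change of 0.02 (95% interval -0.56 to 0.60, adjusted p = 0.961 by edgeR), an interval that spans changes in both directions. It was 0.18 without siE7 replicate 1, with an adjusted p of 0.44 (0.44 to 0.999 over all alternatives).

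The count of NFE2L2 was 0.417, 0.458 and 0.391 times that of KEAP1 with siNC and 0.213, 0.494 and 0.479 times with siE7. The siE7 libraries therefore lay on both sides of the siNC range. The log2 difference was -0.19 (exact two-sided permutation test, p = 1.0), and 0.21 without siE7 replicate 1 (exact p = 0.2). With 1 library left out this test cannot give a p under 0.2. Both remaining siE7 ratios lay above all siNC ratios. NFE2L2 counts were 4.31, 5.72 and 3.29 times those of BACH1 with siNC and 4.58, 5.09 and 4.61 times with siE7, within the siNC range. The difference of the log2 values was 0.14 (exact two-sided permutation test, p = 0.7), and -0.062 without siNC replicate 3 (exact p = 0.8).

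Leaving out replicate 1 of siE7, with the TMM factors computed anew, changed the calls of 5 of the 9 genes. This library lay above both other siE7 libraries for PGD, TKT, TALDO1, NQO1 and KEAP1. It lay below both for ME1, IDH1, NFE2L2 and BACH1. The median size of its log2 gap to their mean was 0.42 for the 9 genes and 0.35 for all tested genes. Replicates 2 and 3 of siE7 differed by a median of 0.029 for the 9 genes and 0.12 for all tested genes. Without it, ME1, IDH1, NFE2L2 and KEAP1 were called higher, beside 28.9% of the 15011 genes then tested. TKT, TALDO1 and NQO1 were called lower, beside 29.5%. ME1 and NQO1 thus passed with and without this library, the former in all settings run and the latter with the exceptions given above.

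**Figure D3:**
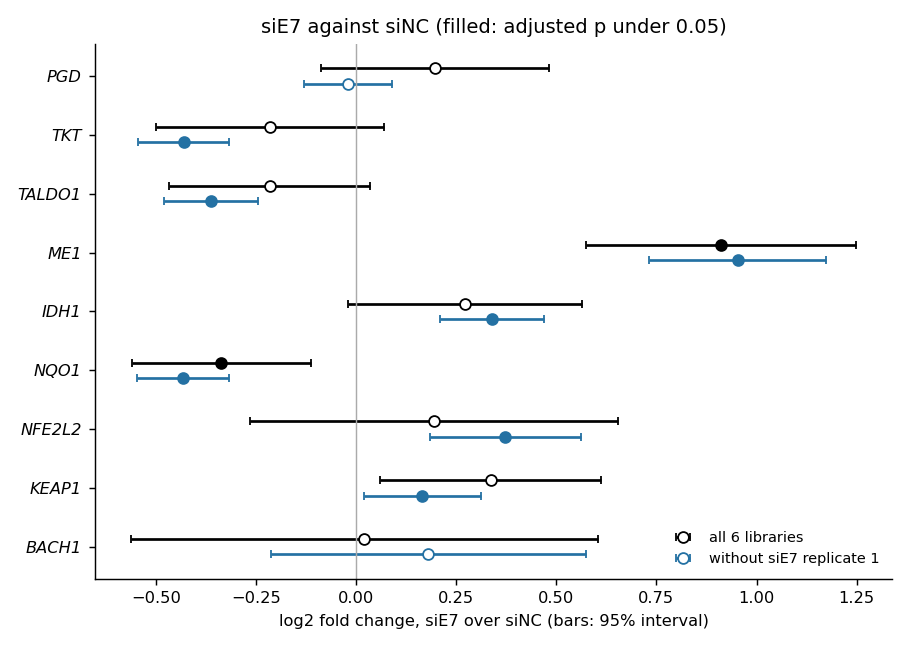
Log2 fold change of siE7 over siNC for each gene with its 95% interval, from all 6 libraries (black) and without siE7 replicate 1 (blue); filled points had an adjusted p under 0.05. ME1 at 0.91 and NQO1 at -0.34 are filled in both, and TKT, TALDO1, IDH1, NFE2L2 and KEAP1 are filled only without that library.

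Levels were compared between genes per length, as reads scaled to library size and to the length of the canonical transcript (RPKM). With siNC the order was PGD (201.0 ± 1.44, SD, n = 3), NQO1 (184.7 ± 3.11), TKT (166.6 ± 6.004), TALDO1 (152.2 ± 3.73), IDH1 (27.4 ± 1.27), KEAP1 (17.4 ± 0.929), NFE2L2 (7.67 ± 0.251), ME1 (3.15 ± 0.187) and BACH1 (0.787 ± 0.198). No neighbours in this order overlapped in their range over the siNC libraries. With siE7 the mean order was the same. There the ranges of NQO1 (136.5 to 153.5 RPKM) and TKT (128.6 to 172.9 RPKM) overlapped, as did those of TKT and TALDO1 (116.3 to 146.2 RPKM). NFE2L2 (5.63 to 10.4 RPKM) and ME1 (5.06 to 6.44 RPKM) also overlapped with siE7. ME1, the enzyme that rose, was thus the least abundant of the 6 enzymes in both groups.

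The other genes of these pathways were read from 5 lists written by hand, which leave out the 9 genes. In the list of other pentose phosphate genes, 9 of 13 were tested and none passed with edgeR or DESeq2, while 2 were higher and 1 lower at an unadjusted p under 0.05 with edgeR. Of all tested genes, 18.0% were called higher and 16.0% lower with edgeR. The median log2 fold change of the list was -0.04 beside 0.08 for all tested genes. Without siE7 replicate 1, 2 genes of the list were called higher and 2 lower, beside 28.9% and 29.5% of all genes then tested. PGLS, which acts just before PGD in the oxidative branch, had a log2 fold change of 0.04 (adjusted p = 0.881 by edgeR).

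Among other genes that supply NADPH or NADP, 18 of 20 were tested, 3 rose and 5 fell, with a median of -0.12, where 18.0% of all tested genes were called higher and 16.0% lower. ALDH1L2, a mitochondrial enzyme that makes NADPH as it oxidises formyl-tetrahydrofolate, rose by 1.06 from 1.26 ± 0.296 CPM (SD, n = 3) to 2.63 ± 0.908 CPM (SD, n = 3) and passed in 9 of 14 alternatives (adjusted p from 2.13e-04 to 0.108). NADK2, the mitochondrial NAD kinase, and NAMPT, which feeds NAD synthesis, rose by 0.70 and 0.64, while siE7 and siNC libraries overlapped for both and they passed in 10 and 9 of 14 alternatives. MTHFD1, a cytosolic folate enzyme that can make NADPH, fell by 0.65 from 506.5 ± 3.10 CPM (SD, n = 3) to 322.4 ± 16.3 CPM (SD, n = 3). SHMT1, which works beside it in folate metabolism, fell by 0.73, and NMNAT2, an enzyme of NAD synthesis, fell by 0.77. MTHFD1 and SHMT1 passed in all 14 alternatives and NMNAT2 in 11. The other 2 that fell, NNT (-0.60) and GLUD1 (-0.56), were named after their values were seen, and encode mitochondrial enzymes. Without siE7 replicate 1, 5 genes of this list were called higher and 10 lower, beside 28.9% and 29.5% of all genes then tested.

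Among the regulators and partners of NRF2, all 23 were tested, 4 rose and 4 fell, with a median of -0.15. This is close to the 18.0% called higher and 16.0% called lower among all tested genes. In the absence of siE7 replicate 1, 6 were called higher and 10 lower, beside 28.9% and 29.5%. SQSTM1 encodes p62, which binds KEAP1 and draws it into autophagy. It had 299.7, 280.8 and 317.0 CPM with siNC and 632.2, 498.4 and 491.2 CPM with siE7, and rose by 0.85 (SE 0.125, adjusted p = 4.34e-04 by edgeR). MAFG, a small MAF partner of NRF2 and BACH1, rose by 0.70 (SE 0.122, adjusted p = 0.0013 by edgeR) from 106.7 ± 12.5 CPM (SD, n = 3) to 173.2 ± 13.4 CPM (SD, n = 3). Both passed in all 14 alternative settings, with log2 fold changes from 0.67 to 1.02 for SQSTM1 and from 0.57 to 0.86 for MAFG. SYVN1, an ubiquitin ligase of the endoplasmic reticulum, rose by 0.56 and passed in 11 of 14 alternatives, losing its call without any 1 siNC library (adjusted p = 0.0593 to 0.0822 by edgeR, 0.00203 to 0.0822 over all alternatives). Its log2 fold change was 0.32 without siE7 replicate 1. AMER1 (0.48), named after its value was seen, also rose. MAFF, another small MAF, fell by 0.49 and passed in 10 of 14 alternatives. Of the factors related to NRF2, NFE2 fell by 1.35 at levels of 1.94 ± 0.445 and 0.754 ± 0.272 CPM (SD, n = 3), and NFE2L3 fell by 0.83, and they passed in 13 and 12 of 14 alternatives. DPP3 (-0.39), a peptidase that can bind KEAP1, also fell and was named after its value was seen. NFE2L1 had 0.11 (adjusted p = 0.48 by edgeR) and CUL3, the ligase scaffold of KEAP1, had -0.05 (adjusted p = 0.841 by edgeR).

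In the list of NRF2 targets, 35 of 38 genes were tested, 19 rose and 3 fell, and 10 of those that rose had a log2 fold change beyond 1. Of all tested genes, 18.0% were called higher and 16.0% lower, and 12.2% were called in either direction with a log2 fold change beyond 1. The median of the list was 0.54, beside 0.08 for all tested genes. Among them were the aldo-keto reductases AKR1C2 (3.44), AKR1C1 (2.51) and AKR1B10 (1.95). AKR1B10 had 7 to 24 counts in the siNC libraries, and its log2 fold change lay between 1.598 and 2.34 over its alternatives. PIR (1.94), named after its value was seen, was level with it. AKR1C1 and AKR1C2 are near-identical copies between which reads may have been split. The 3 that fell were CBR3 (-0.93) and CBR1 (-0.80), which reduce carbonyl compounds, and SLC48A1 (-0.38), a heme transporter that passed in 4 of 14 alternatives. NQO1 is not in this list, and its log2 fold change of -0.34 lay on the side of these 3, opposite to the 19 that rose. Without siE7 replicate 1, 20 genes of the list were called higher and 6 lower, beside 28.9% and 29.5% of all genes then tested. The median of the list was then 0.36. AKR1C2 was followed up in the study on the basis of these libraries, and the list was drawn up with their results known, so it is not independent evidence of its direction.

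For each of the 9 genes, the tested gene with the most similar profile was sought by Euclidean distance over the 6 libraries on the log2 scale, centred on siNC. The nearest were SEC16A to PGD (distance 0.0243), UQCRC1 to TKT (0.0229), PRKAR1B to TALDO1 (0.0652), TRAF3IP1 to ME1 (0.0684) and SARNP to IDH1 (0.0569). For the others they were JPT2 to NQO1 (0.0653), RFC1 to NFE2L2 (0.0669), HLA-B to KEAP1 (0.0716) and METTL18 to BACH1 (0.253). None of the 9 genes was nearest to another of them. With 6 libraries in 2 groups such distances describe these libraries only.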

How the data were processed

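Stranded poly(A) RNA libraries of 6 samples were sequenced as paired reads of 150 bases. The authors deposited counts of reads per gene without normalization. The submitters' processing notes name HISAT2, DESeq2 and GRCh38, and the counting tool, its strand setting and the annotation release are not given in the sources used here. The samples were grouped by title.

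From the counts, genes were kept by filterByExpr of edgeR 4.0.16 (R 4.3.3), TMM factors scaled the libraries, and the groups were tested with the quasi-likelihood method of edgeR (robust dispersions), with p-values adjusted by Benjamini-Hochberg over 14661 genes. CPM are counts per 1000000 of the scaled library. Intervals are at 95%. Alternatives were DESeq2 1.42.0, limma-voom (limma 3.58.1), RLE and upper-quartile factors, library totals, no filter, at least 10 counts in every library, the replicate number as a block, and each library left out. With a library left out, the filter and the TMM factors were computed anew. Ratios were compared by an exact two-sided permutation test (scipy 1.17.1), which cannot give a p-value under 0.1 with 3 libraries a group. The fit was tested on simulated data.

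Positions, overlaps and lengths come from GENCODE 44 on GRCh38, to which 25283 of 25349 identifiers were matched without their version. Promoter sequences of all 9 genes come from RefSeq (GRCh38.p14). The genes, lists and thresholds were chosen with earlier results of these data known. The named genes were the 9 members, MKI67, a set of partners (PGLS, CUL3, MAFG, SQSTM1 and NFE2L1), up to 3 called genes with the largest change in each direction per list, and the nearest profile of each member (0.5 CPM added before log2). All per-sample columns were used. A further gene of the set of partners is not reported here.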

Additional observations from a re-analysis of the deposited data

How the results depend on the processing

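MKI67 and ME1 kept their direction and call in all 14 alternatives. With library totals as the scale, PGD (0.36), IDH1 (0.45) and KEAP1 (0.50) were called, NQO1 was not (-0.17), 4 of the 9 genes were called higher and 0 lower, and ME1 (1.09) passed the condition on the fold change, 1 gene in all. Then 4030 of all 14661 tested genes were called higher and 1632 lower, and 2010 were called with a log2 fold change beyond 1. Genes called higher were 2, 5, 7 and 1 among pentose phosphate genes, other NADPH supply, NRF2 regulators and NADPH oxidases. In each of the last 2 lists, 2 genes were called lower. KEAP1 was also called with upper-quartile scaling (0.36) and with at least 10 counts in every library (0.36), giving 2 genes called higher in each. Of all genes, 2839 and 2484 were called higher in these settings. Without a filter 1 pentose phosphate gene was called higher, beside 2944 of all genes. BACH1 reversed with DESeq2 (-0.043), limma-voom (-0.0007) and RLE scaling (-0.033). CUL3 reversed with library totals (0.12), and PGLS with DESeq2 (-0.016) and RLE scaling (-0.0069). The cause was not tested.

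With the replicate number as a block NQO1 was not called (-0.34, adjusted p = 0.0595 by edgeR), which left 0 of the 9 genes called lower, and no other call of the 9 changed. The labels give same-numbered libraries only a shared number. Their deviations from the group means had correlations of -0.0789 to -0.0191. With 3 libraries a group and siE7 replicate 1 apart from the others, these values cannot show whether such libraries share anything more.

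With each library left out in turn, the log2 fold changes lay between -0.021 and 0.28 (PGD), -0.43 and -0.14 (TKT), -0.36 and -0.14 (TALDO1), 0.20 and 0.34 (IDH1), -0.43 and -0.29 (NQO1), 0.055 and 0.37 (NFE2L2), 0.17 and 0.39 (KEAP1), and -0.15 and 0.22 (BACH1). BACH1 reversed without siNC replicate 1 or 2 and without siE7 replicate 2 or 3. Of the 9 genes 1 to 4 were called higher and 0 to 3 lower, and of all genes 1598 to 4343 higher and 1552 to 4422 lower. Pentose phosphate genes gave 0 to 2 higher and 0 to 2 lower, and other NADPH supply 0 to 5 and 4 to 10. NRF2 regulators gave 2 to 6 and 1 to 10, and NRF2 targets 16 to 20 and 2 to 6. Of the NADPH oxidases, 1 to 4 were called lower. The highest of each of these counts, for the 9 genes, all genes and the lists, came without siE7 replicate 1. There 28.9% of the 15011 tested genes were called higher and 29.5% lower. With any other library left out, 1598 to 2072 of all genes were called higher and 1552 to 1919 lower. PGLS (-0.063 to 0.17) reversed without siNC replicate 2 or siE7 replicate 1 or 2, CUL3 (-0.22 to 0.067) without siNC or siE7 replicate 1, and NFE2L1 (-0.065 to 0.18) without siE7 replicate 1. The log2 ratio differences lay between -0.40 and 0.21 for NFE2L2 to KEAP1 and between -0.062 and 0.34 for NFE2L2 to BACH1. BACH1 had the fewest counts of the 9 genes, 85 to 167 per library, and the part of depth in its interval was not tested.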

Other observations

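NADPH oxidases and their subunits, which spend NADPH to make superoxide or hydrogen peroxide, form a list of 17 genes, of which 9 were tested. With edgeR none rose (0 also at an unadjusted p under 0.05, and 0 with DESeq2) and 4 fell, with a median log2 fold change of -0.47 beside 0.08 for all tested genes, of which 16.0% were called lower. RAC2, a small GTPase of the phagocyte oxidase, fell by 0.81 from 26.3 ± 2.42 CPM (SD, n = 3) to 15.0 ± 3.14 CPM (SD, n = 3), with an adjusted p of 0.00363 by edgeR. NCF1, an organizer subunit with near-identical gene copies between which reads may be split, fell by 0.78 from 4.52 ± 0.981 to 2.63 ± 0.626 CPM (SD, n = 3), and DUOX2, a dual oxidase, by 0.66 from 3.30 ± 0.464 to 2.08 ± 0.238 CPM (SD, n = 3). RAC2 passed in all 14 alternatives, NCF1 in 9 and DUOX2 in 5. CYBA, a membrane subunit named after its value was seen, fell by 0.47. NOX1, NOX3, NOX4, NOX5 and CYBB, which encode catalytic subunits, were not among the genes tested.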
